A study of Homo sapiens with 9 samples.

Results

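The transcripts described here are those of 10 amino acid transporter genes of human embryonic kidney (HEK293T) cells, SLC7A11, SLC6A9, SLC7A5, SLC3A2, SLC7A1, SLC38A1, SLC38A2, SLC1A4, SLC1A5 and SLC43A1. They were picked by name from the 57500 genes of the count files, with results of MsOc3HBC against DMSO in view, in which SLC7A11 and SLC6A9 stood out. For MsOc3HBC against DMSO, the values of all 10 genes are therefore a description without p-values, and the same holds for SLC7A11 and SLC6A9 wherever the MsOc3HBC libraries enter. Cells of this single established line were kept in DMEM/F-12 medium with serum and a stable glutamine dipeptide, and were exposed for 5 h to 10 µM HBC530, to 10 µM MsOc3HBC or to DMSO, the solvent control. HBC530 is the noncovalent fluorogenic ligand of the Pepper RNA aptamer, and MsOc3HBC is its counterpart with a mesylate handle that can alkylate the aptamer. The methods for these libraries name no transfected aptamer, so the comparison asks how the ligands themselves affect endogenous transcripts. Poly(A) RNA of 3 biological replicates per group was sequenced, giving 9 libraries.

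Amino acid transporters of the solute carrier (SLC) families move amino acids across the plasma membrane. Many are driven by a sodium gradient or exchange an amino acid for another, and some are facilitators. Several are heterodimers, in which a light chain of the SLC7 family carries the substrate and the heavy chain SLC3A2 (CD98hc) brings it to the cell surface. When amino acids run short or the endoplasmic reticulum is stressed, the transcription factor ATF4 of the integrated stress response raises the transcription of many transporter genes, and SLC7A11 is in addition a known target of the electrophile sensor NRF2.

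The sequences before the start sites are shown for some of the members, SLC6A9, SLC38A1, SLC38A2, SLC7A1 and SLC3A2. The windows before the internal starts of SLC1A5 are not printed. RefSeq (GRCh38.p14) gave 16 start sites for 9 of the 10 genes. SLC7A11 had no entry. Each line gives 250 bases upstream of the start, 5′ to 3′ on the strand of the gene, with capitals for a match to a motif. The windows are chr1:44031463-44031712 (minus strand) for SLC6A9, chr12:46267988-46268237 (minus strand) for SLC38A1, chr12:46372774-46373023 (minus strand) for SLC38A2, chr13:29595689-29595938 (minus strand) for SLC7A1 and chr11:62881449-62881698 (plus strand) for SLC3A2.
SLC6A9: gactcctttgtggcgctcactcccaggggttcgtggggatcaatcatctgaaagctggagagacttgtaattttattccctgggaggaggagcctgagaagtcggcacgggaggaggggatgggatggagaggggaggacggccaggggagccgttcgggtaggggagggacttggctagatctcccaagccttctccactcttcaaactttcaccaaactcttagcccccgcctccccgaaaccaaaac
SLC38A1: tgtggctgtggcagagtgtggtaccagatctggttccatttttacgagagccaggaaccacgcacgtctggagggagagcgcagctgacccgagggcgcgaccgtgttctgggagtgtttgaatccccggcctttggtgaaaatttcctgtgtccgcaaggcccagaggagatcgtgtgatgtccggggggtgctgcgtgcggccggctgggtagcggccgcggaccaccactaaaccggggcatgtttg
SLC38A2: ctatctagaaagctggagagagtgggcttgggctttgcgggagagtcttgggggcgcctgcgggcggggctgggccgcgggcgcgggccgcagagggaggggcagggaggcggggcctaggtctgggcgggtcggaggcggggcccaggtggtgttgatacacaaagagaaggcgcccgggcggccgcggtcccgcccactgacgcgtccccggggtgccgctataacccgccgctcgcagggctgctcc
SLC7A1: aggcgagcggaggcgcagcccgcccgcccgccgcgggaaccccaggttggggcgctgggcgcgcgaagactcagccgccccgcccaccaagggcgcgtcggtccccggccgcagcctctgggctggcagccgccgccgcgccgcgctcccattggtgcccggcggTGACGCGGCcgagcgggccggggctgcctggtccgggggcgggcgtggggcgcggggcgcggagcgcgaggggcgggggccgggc
SLC3A2: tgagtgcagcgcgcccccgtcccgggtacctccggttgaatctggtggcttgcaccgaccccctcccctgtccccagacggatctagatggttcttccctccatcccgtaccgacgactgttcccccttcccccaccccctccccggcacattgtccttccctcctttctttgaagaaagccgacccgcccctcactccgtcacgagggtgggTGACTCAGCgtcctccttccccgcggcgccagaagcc
The windows were searched on both strands for TGATGNAA, a form of the amino acid response element that ATF4 binds together with C/EBP proteins, and for TGACNNNGC, the core of the antioxidant response element that NRF2 binds. TGACNNNGC was found in 3 of the 16 windows, as TGACTCAGC at -37 to -29 from an SLC3A2 start, as TGACGCGGC at -85 to -77 from the SLC7A1 start and, on the opposite strand, as GCGAGGTCA at -111 to -103 from an internal SLC1A5 start. It is held by 10.9% of the 35116 annotated start sites. TGATGNAA was found in 1 window, as TGATGCAA at -97 to -90 from another internal SLC1A5 start, and is held by 3.14% of all starts. The windows of SLC6A9, SLC38A1, SLC38A2, SLC1A4, SLC7A5 and SLC43A1 held neither motif within these 250 bases.

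Levels within a gene are given as normalized CPM, read counts scaled to a common library size. The libraries held between 28056929 and 62205366 counts on genes, fewest in replicate 3 of MsOc3HBC. Along the first principal component, which held 37.3% of the variance, replicate 3 of HBC530 (36.94) and replicate 3 of MsOc3HBC (48.79) lay apart from the other 7 libraries (-20.28 to -4.28), so results that rest on them are also given without them. All 8 markers of HEK293 lines exceeded 1 CPM in every library. Of 6 markers of other cells, 5 stayed below 1 CPM and MYH2 had no count, while the fibroblast marker COL1A1 was at 19.4 to 35.2 CPM. In bulk RNA, fewer expressing cells and less RNA per cell cannot be told apart. All 10 transporter transcripts passed the filter on low counts in each comparison, and the lowest count of any of them in a library was 366, for SLC1A4.

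The 10 transcripts spanned more than 2 orders of magnitude, and the well-expressed ones were those of the bulk carriers. Levels between genes are given per exonic length (RPKM, CPM per kilobase of merged exons). In DMSO, SLC1A5 led with 143 ± 14.4 RPKM (SD, n = 3), followed by SLC7A5 (115 ± 3.72), SLC3A2 (52.2 ± 1.58), SLC7A1 (24.7 ± 0.952), SLC38A2 (15.8 ± 2.39) and SLC38A1 (12.3 ± 2.05). The lower end was formed by SLC43A1 (5.09 ± 0.617), SLC6A9 (2.84 ± 0.371), SLC1A4 (1.62 ± 0.0776) and, last, SLC7A11 (0.955 ± 0.110). SLC38A2 and SLC38A1 were the only neighbours in this order whose DMSO libraries overlapped. The order was the same with HBC530. With MsOc3HBC, SLC6A9 (5.71 ± 0.539 RPKM) stood above SLC43A1 (4.93 ± 0.286) and SLC7A11 (2.83 ± 0.534) above SLC1A4 (2.28 ± 0.135). In both of these pairs the libraries overlapped, from 5.10 to 6.09 RPKM for SLC6A9 and 4.68 to 5.24 for SLC43A1, and from 2.37 to 3.42 for SLC7A11 and 2.15 to 2.42 for SLC1A4.

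**Figure D1:**
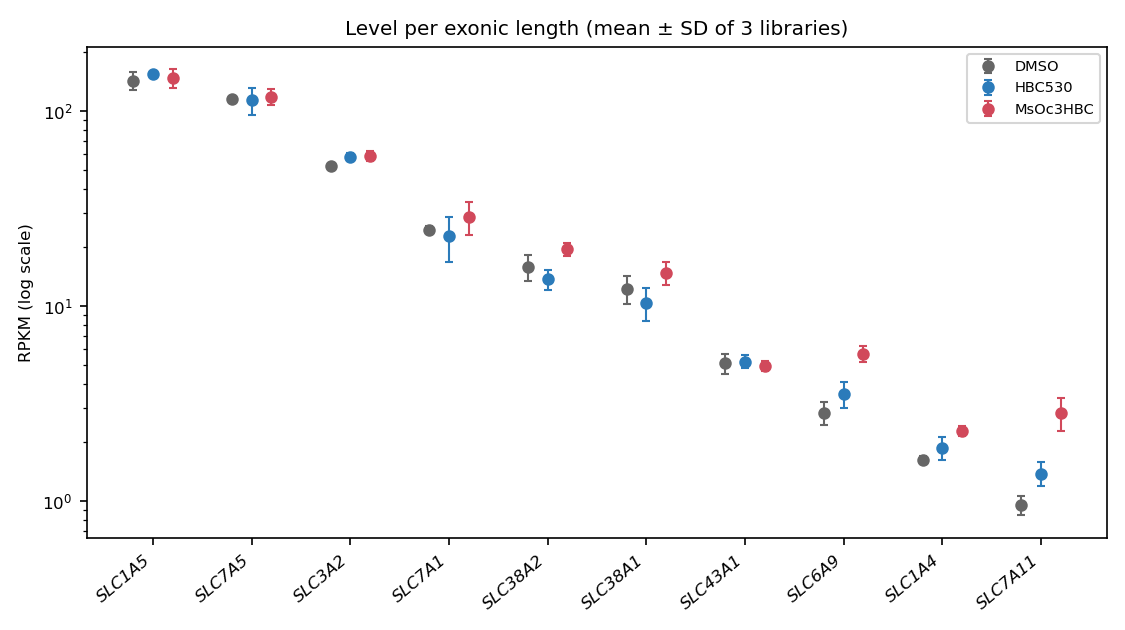
Level of each transporter transcript per exonic length (RPKM, log axis) in DMSO (grey), HBC530 (blue) and MsOc3HBC (red). Points are means and bars SDs of 3 libraries. The order from SLC1A5 to SLC38A1 is the same in all groups, and SLC6A9 and SLC7A11 move up past a neighbour with MsOc3HBC.

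Together the 10 transcripts took 0.177 ± 0.00291% of all counts in DMSO, 0.177 ± 0.0216% with HBC530 and 0.196 ± 0.0154% with MsOc3HBC. Most of this share belonged to SLC7A5, SLC1A5 and SLC3A2. Single libraries spanned 0.174 to 0.180% (DMSO), 0.153 to 0.193% (HBC530) and 0.182 to 0.212% (MsOc3HBC), lowest in replicate 3 of each ligand.

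SLC7A11, the light chain of the cystine/glutamate exchanger system xc-, was the least abundant member in DMSO and with HBC530 and differed most between the groups. It lies on chr4:138164097-138242349 (GRCh38, minus strand), and its exons are long (9645 bases) and poor in GC (35.4%). The DMSO libraries held 10.4, 8.72 and 8.48 CPM, the HBC530 libraries 14.9, 13.8 and 11.3 CPM, and the MsOc3HBC libraries 26.1, 33.0 and 22.9 CPM, in replicates 1 to 3. No group overlapped another, and replicate 3 was the lowest of each ligand. Against DMSO, the log2 fold change was 1.58 with MsOc3HBC (SE 0.14, 95% confidence interval 1.26 to 1.89), a 2.98-fold level. It was 1.69 without replicate 3 of MsOc3HBC and between 1.42 and 1.69 over all alternatives, removal of trends with GC content and length included. The antisense gene SLC7A11-AS1 shares 865 exonic bases with it and held a mean of 2.33 counts, against 785 for SLC7A11.

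With HBC530, SLC7A11 stood 0.54 above DMSO on the log2 scale (SE 0.13, interval 0.26 to 0.83), and 0.65 without replicate 3 of HBC530. This did not pass by the quasi-likelihood test of edgeR (Benjamini-Hochberg adjusted p = 0.751). It passed in 3 of 16 alternatives, with no filter on low counts (0.0304), with GC and length trends removed (0.0352) and with those trends removed and a replicate block (0.0200), over a range from 0.0200 to 0.960. MsOc3HBC was 1.03 above HBC530 (interval 0.67 to 1.40), and within replicate numbers the log2 ratios were 0.80, 1.25 and 1.02.

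SLC6A9 (chr1:43991500-44031467, minus strand) encodes the sodium-coupled glycine transporter GlyT1. Its DMSO libraries were at 12.8, 14.5 and 16.6 CPM and its HBC530 libraries at 20.2, 19.3 and 15.2 CPM, while the MsOc3HBC libraries reached 30.7, 31.4 and 26.3 CPM. MsOc3HBC lay above all other libraries, whereas replicate 3 of HBC530 fell within the DMSO range. The log2 fold change of MsOc3HBC against DMSO was 1.01 (SE 0.12, interval 0.74 to 1.28), a 2.01-fold level, with 1.08 without replicate 3 of MsOc3HBC. Its call depended on single libraries, since 1 of the 10 members passed in place of 2 without DMSO replicate 1 (log2 fold change of SLC6A9 0.92) or without MsOc3HBC replicate 1 (0.98). For HBC530 against DMSO it was 0.32 (SE 0.13, interval 0.02 to 0.62, adjusted p = 0.751 by edgeR), and 0.44 without replicate 3 of HBC530. Between the ligands, SLC6A9 was 0.69 higher with MsOc3HBC (interval 0.39 to 0.99), with log2 ratios of 0.60, 0.70 and 0.79 within replicate numbers. CCDC24 on the opposite strand shares 404 bases, 7.83% of the SLC6A9 exons, with a mean of 130 counts against 996. CCDC24 itself covered 1.94 to 2.89 CPM in DMSO and 2.05 to 2.89 CPM with MsOc3HBC.

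SLC7A5 and SLC3A2 form LAT1-CD98hc, the exchanger that imports leucine and other large neutral amino acids. SLC7A5 (chr16:87830023-87869488, minus strand) held 526, 550 and 561 CPM in DMSO, 567, 611 and 446 CPM with HBC530 and 561, 619 and 508 CPM with MsOc3HBC. The groups overlapped, and replicate 3 was the lowest of each ligand. Its log2 fold changes were -0.01 with HBC530 (interval -0.26 to 0.24, adjusted p = 0.983 by edgeR) and 0.05 with MsOc3HBC (interval -0.17 to 0.27) against DMSO, and 0.06 between the ligands (interval -0.25 to 0.37, adjusted p = 0.955). Their direction was not stable, and the MsOc3HBC value was -0.028 without MsOc3HBC replicate 2.

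SLC3A2 (chr11:62856102-62888875, plus strand), the heavy chain of SLC7A5, SLC7A11 and other light chains, was narrower in its spread. It stood at 261, 272 and 278 CPM in DMSO, at 294, 291 and 318 CPM with HBC530 and at 291, 298 and 325 CPM with MsOc3HBC. Both ligands lay above the DMSO libraries, and here replicate 3 was the highest of each. The differences were small, with log2 fold changes of 0.16 (SE 0.08, interval -0.02 to 0.33, adjusted p = 0.751 by edgeR) for HBC530 and 0.18 (SE 0.09, interval -0.03 to 0.38) for MsOc3HBC. Between the ligands the value was 0.02, with an interval from -0.19 to 0.23 (adjusted p = 0.983).

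The ratios between these chains were also compared, per exonic length. SLC7A5 exceeded SLC7A11 by 122 ± 16.9 to 1 in RPKM in DMSO, by 82.4 ± 6.56 to 1 with HBC530 and by 42.4 ± 3.70 to 1 with MsOc3HBC (n = 3 each). These ratios spanned 103 to 134, 77.2 to 89.8 and 38.2 to 45.2 in the 3 groups, without overlap, and are given as a description because SLC7A11 enters them. The ratio of SLC3A2 to the sum of SLC7A5 and SLC7A11 was 0.451, 0.450 and 0.450 in the DMSO libraries, 0.469, 0.432 and 0.645 with HBC530 and 0.465, 0.430 and 0.573 with MsOc3HBC. It was thus between 0.430 and 0.469 in all libraries except replicate 3 of each ligand.

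SLC7A1 (CAT-1; chr13:29509410-29595688, minus strand) carries arginine, lysine and ornithine. It was at 196, 191 and 182 CPM in DMSO, at 193, 209 and 124 CPM with HBC530 and at 224, 263 and 178 CPM with MsOc3HBC. Replicate 3 was the lowest of each group, and the groups overlapped. The log2 fold changes against DMSO were -0.11 for HBC530 (interval -0.47 to 0.24, adjusted p = 0.846 by edgeR), which turned to 0.09 without its replicate 3, and 0.22 for MsOc3HBC (interval -0.06 to 0.51), which was 0.083 without its replicate 2 and 0.36 without its replicate 3.

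SLC38A1 and SLC38A2 (SNAT1 and SNAT2) are sodium-coupled carriers of glutamine, alanine and other small neutral amino acids. They are neighbours on chromosome 12, SLC38A1 at chr12:46183063-46270017 and SLC38A2 at chr12:46358189-46372867 (both minus strand), 88171 bases apart with no protein-coding gene between. SLC38A1 held 146, 114 and 108 CPM in DMSO, 113, 118 and 81.0 CPM with HBC530 and 148, 169 and 130 CPM with MsOc3HBC. SLC38A2 followed the same pattern, with 123, 98.0 and 93.2 CPM, then 96.6, 97.3 and 78.5 CPM, then 124, 140 and 124 CPM. In both genes, replicate 1 was the highest DMSO library, replicate 3 the lowest HBC530 library and replicate 2 the highest MsOc3HBC library. Against DMSO, the HBC530 values were below 0 on the log2 scale, at -0.24 for SLC38A1 (interval -0.58 to 0.10) and -0.20 for SLC38A2 (interval -0.48 to 0.07), each with an adjusted p of 0.751 by edgeR. They shrank to -0.08 and -0.10 without replicate 3 of HBC530, and to -0.095 and -0.073 without replicate 1 of DMSO. The MsOc3HBC values were above 0, at 0.28 (interval -0.01 to 0.57) and 0.31 (interval 0.06 to 0.56), and of this pair only SLC38A2 had all MsOc3HBC libraries above all DMSO libraries. Without replicate 2 of MsOc3HBC the value of SLC38A1 was 0.18, and with any 1 of the 6 libraries left out it lay between 0.18 and 0.42.

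SLC1A4 (ASCT1; chr2:64988477-65023865, plus strand), an exchanger of serine, alanine and cysteine, was low throughout. Its DMSO libraries were at 10.98, 11.85 and 10.87 CPM, its HBC530 libraries at 13.8, 14.3 and 11.1 CPM and its MsOc3HBC libraries at 14.9, 15.8 and 16.8 CPM. MsOc3HBC exceeded all other libraries, and replicate 3 of HBC530 fell among the DMSO values. The log2 fold change was 0.50 for MsOc3HBC against DMSO (SE 0.10, interval 0.27 to 0.72), the third largest of the members, and 0.45 without replicate 3 of MsOc3HBC. For HBC530 it was 0.22 (SE 0.11, interval -0.03 to 0.48, adjusted p = 0.751 by edgeR).

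SLC1A5 (ASCT2; chr19:46774883-46788594, minus strand), the main glutamine exchanger of many proliferating cells, was at 425, 490 and 518 CPM in DMSO, at 512, 516 and 516 CPM with HBC530 and at 456, 469 and 554 CPM with MsOc3HBC. The groups overlapped. SLC43A1 (LAT3; chr11:57484534-57515786, minus strand), a facilitator of branched-chain amino acids, stayed between 15.6 and 19.9 CPM in all 9 libraries. For SLC1A5 the log2 fold changes against DMSO were 0.11 with HBC530 (interval -0.10 to 0.31, adjusted p = 0.755 by edgeR) and 0.05 with MsOc3HBC (interval -0.20 to 0.30). The HBC530 value was 0.029 without DMSO replicate 1, and the MsOc3HBC value turned to -0.034 without DMSO replicate 1 and to -0.045 without MsOc3HBC replicate 3. For SLC43A1 they were 0.03 (interval -0.22 to 0.28, adjusted p = 0.946 by edgeR) and -0.04 (interval -0.29 to 0.21), and the MsOc3HBC value was 0.040 without DMSO replicate 3.

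**Figure D2:**
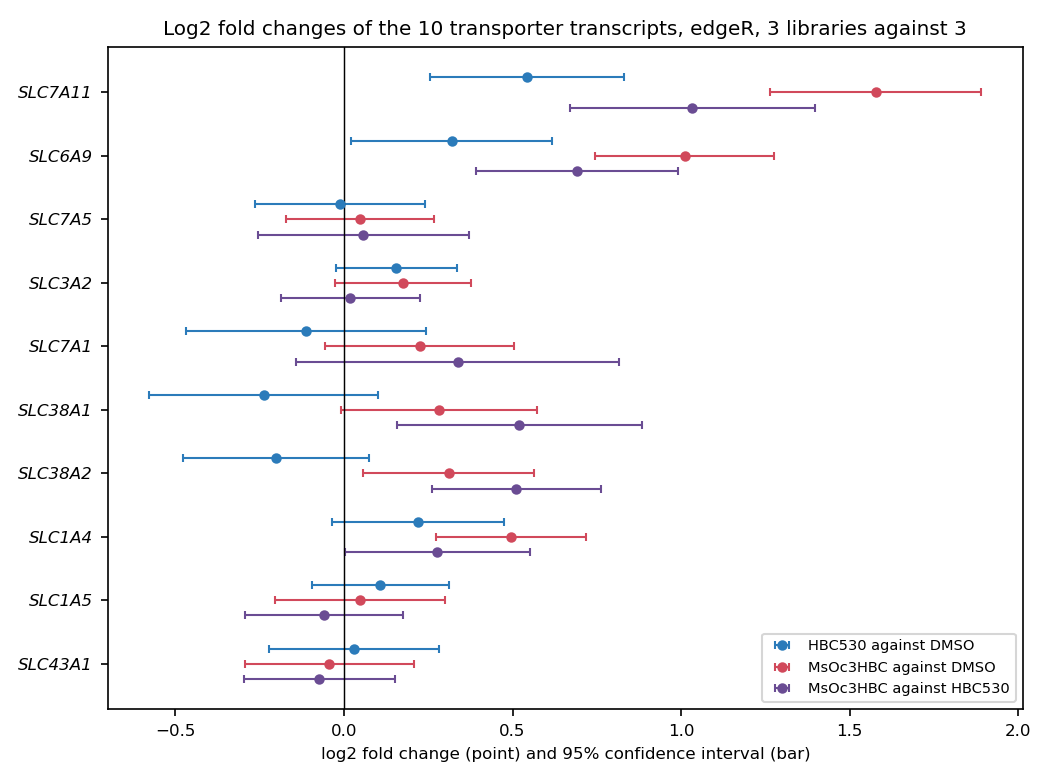
Log2 fold change (point) and 95% confidence interval (bar) of each transporter transcript for HBC530 against DMSO (blue), MsOc3HBC against DMSO (red) and MsOc3HBC against HBC530 (purple), from edgeR with 3 libraries against 3. With MsOc3HBC, SLC7A11 and SLC6A9 reach 1.58 and 1.01, while SLC7A5, SLC1A5 and SLC43A1 are at 0.05, 0.05 and -0.04.

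Counted over the list, HBC530 called none of the 10 transporters at an adjusted p under 0.05 by edgeR's quasi-likelihood test, where 0.017% of 17684 genes were called. At an unadjusted p under 0.05 there were 2, SLC7A11 and SLC6A9, against 5.07% of all genes. DESeq2 and limma-voom also called 0, where they called 0.062% and 0.0283% of all genes. In 2 of the 10, SLC7A11 and SLC3A2, all HBC530 libraries lay above all DMSO libraries, against 7.17% of all genes. The median log2 fold change of the 10 was 0.07, that of all genes tested 0.0046. With MsOc3HBC, 2 of the 10 were called, SLC7A11 and SLC6A9, both higher, where 0.154% of 17514 genes were called and 0.0799% were called higher, and nothing is read from this count because it helped to choose the genes. Both also passed the limits set in the methods (an adjusted p below 0.5 with a log2 difference of more than 1), which 0.56% of genes (98) passed by edgeR. The study used DESeq2, by which 65 genes passed these limits here, more than it reports as altered. In 5 of the 10, namely SLC7A11, SLC6A9, SLC3A2, SLC38A2 and SLC1A4, all MsOc3HBC libraries lay above all DMSO libraries, against 9.35% of all genes. The median log2 fold change was 0.25, against 0.012 over all genes. These values include SLC7A11 and SLC6A9 and come from the comparison in view when the genes were chosen. Nothing is therefore read from them either. The HBC530 and MsOc3HBC comparisons share the same DMSO libraries.

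The ligands were then compared directly at the same dose and time, a comparison that shares the MsOc3HBC libraries by which the genes were chosen. Of the 10 transcripts, 5 had all MsOc3HBC libraries above all HBC530 libraries (SLC7A11, SLC6A9, SLC38A1, SLC38A2 and SLC1A4), against 6.85% of all genes, and the median log2 fold change was 0.31, against 0.017 over all genes. Both values include SLC7A11 and SLC6A9, by which the genes were chosen, so the calls are given for the other 8. Without a block, edgeR called 0 of the 8, as it called 0% of 17397 genes. At an unadjusted p under 0.05 there were 3 of the 8 (SLC38A1, SLC38A2 and SLC1A4), against 7.32% of all genes, and DESeq2 called 1 (SLC38A2), where it called 0.0801% of all genes. Libraries with the same replicate number deviated together between the ligands. A fit with the replicate number as a block, called the paired fit below, was therefore added. The labels do not say whether same-numbered libraries were made together. Whether the shared deviations come from replicate 3 of both ligands, which lay apart from the other libraries, was not tested. With the block, edgeR called 3 of the 8 (SLC38A1, SLC38A2 and SLC7A1), all higher with MsOc3HBC, where 11.4% of all genes were called and 4.54% were called higher.

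In the paired fit SLC7A11 was 1.03 (interval 0.86 to 1.21) and SLC6A9 0.69 (interval 0.56 to 0.83) on the log2 scale, given as a description. SLC38A1 was 0.53 higher with MsOc3HBC in the paired fit (interval 0.41 to 0.65, adjusted p = 0.000373 by edgeR, 0.643 without the block), with log2 ratios of 0.39, 0.52 and 0.68 in replicates 1 to 3. SLC38A2 was 0.51 higher (interval 0.39 to 0.64, adjusted p = 0.000581, 0.643 without the block), with ratios of 0.36, 0.53 and 0.66. SLC7A1 was 0.35 higher (interval 0.23 to 0.47, adjusted p = 0.00333, 0.753 without the block), with ratios of 0.21, 0.33 and 0.52. Each was thus higher at 3 of 3 replicate numbers. The genes were picked with results of the same MsOc3HBC libraries in view, so these p-values are not an independent test. The alternatives that follow use the same libraries. These 3 also passed by edgeR without replicate 3 of both ligands, with log2 fold changes of 0.45, 0.44 and 0.27 (adjusted p = 0.000632, 0.000632 and 0.0186), where 9.16% of all genes were called and 3.16% were called higher. They passed with the block and with GC and length trends removed as well (0.45, 0.38 and 0.39), where 1.85% were called and 0.707% were called higher.

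For the other members no difference between the ligands was called. SLC1A4 was 0.27 higher with MsOc3HBC in the paired fit (interval 0.07 to 0.46, adjusted p = 0.0716 by edgeR), but its ratios of 0.12, 0.15 and 0.60 were uneven and the value was 0.13 without replicate 3 of both ligands. The paired intervals ran from -0.04 to 0.17 for SLC7A5, from -0.08 to 0.11 for SLC3A2, from -0.18 to 0.05 for SLC1A5 and from -0.23 to 0.09 for SLC43A1, with adjusted p-values of 0.443, 0.839, 0.478 and 0.576 by edgeR. Differences of up to these bounds remain possible.

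**Figure D3:**
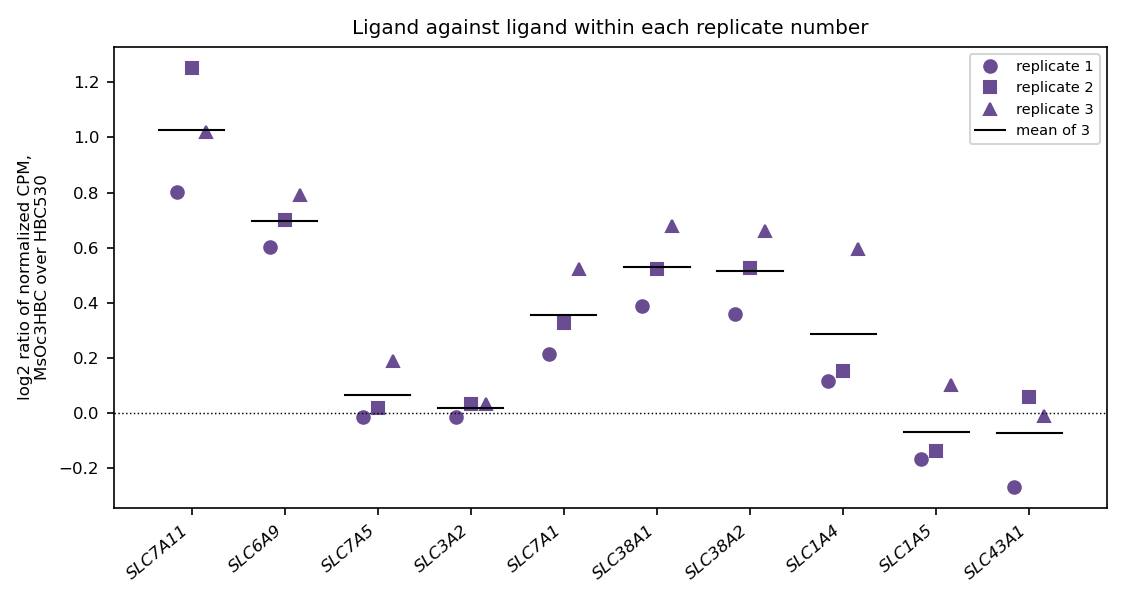
Log2 ratio of normalized CPM, MsOc3HBC over HBC530, within replicates 1 (circle), 2 (square) and 3 (triangle) for each transporter transcript, with the mean of 3 as a line. All 3 ratios are above 0 for SLC7A11, SLC6A9, SLC7A1, SLC38A1, SLC38A2 and SLC1A4, and the other 4 genes have ratios on both sides of 0.

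Other transporters of the same membranes were looked at next. Of 41 other plasma membrane and lysosomal amino acid transporters, 23 passed the filter on low counts. By edgeR, 0 of the 23 were called in each of the 3 comparisons, while 3 (HBC530 against DMSO), 5 (MsOc3HBC against DMSO) and 2 (MsOc3HBC against HBC530) had an unadjusted p under 0.05, against 5.07%, 10.9% and 7.32% of all genes. Their median log2 fold changes were -0.07, -0.14 and -0.05. With each ligand, 6 of the 23 had all treated libraries below all DMSO libraries, against 6.64% of all genes for HBC530 and 8.96% for MsOc3HBC, and 0 had all above. Between the ligands, 5 of the 23 had all MsOc3HBC libraries below all HBC530 libraries, against 8.5% of all genes.

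The 2 best-expressed of this list per length were SLC38A10 and SLC1A3. SLC1A3 (EAAT1), a glutamate and aspartate transporter, held 62.3, 57.3 and 56.4 CPM in DMSO, 49.16, 49.97 and 39.33 CPM with HBC530 and 44.6, 49.4 and 38.9 CPM with MsOc3HBC. Both ligands lay below DMSO, with log2 fold changes of -0.34 (SE 0.11) and -0.40 (SE 0.11), and adjusted p-values by edgeR of 0.751 and 0.245. SLC38A10 was at 64.8 to 78.7 CPM in DMSO, 76.1 to 83.7 CPM with HBC530 and 60.7 to 65.6 CPM with MsOc3HBC. Its log2 fold change of MsOc3HBC against HBC530 was -0.33, with an adjusted p by edgeR of 0.643 without the block and 0.00256 with it, and it was not called with the block and GC and length trends removed. SLC43A2 (LAT4), relative of SLC43A1, was the other transporter of the list called with the block, at -0.43 (adjusted p = 0.00483 by edgeR), and stayed called with those trends removed as well, at -0.34 (adjusted p = 0.0400). All genes were called at 11.4% and 1.85% in these fits.

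**Figure D4:**
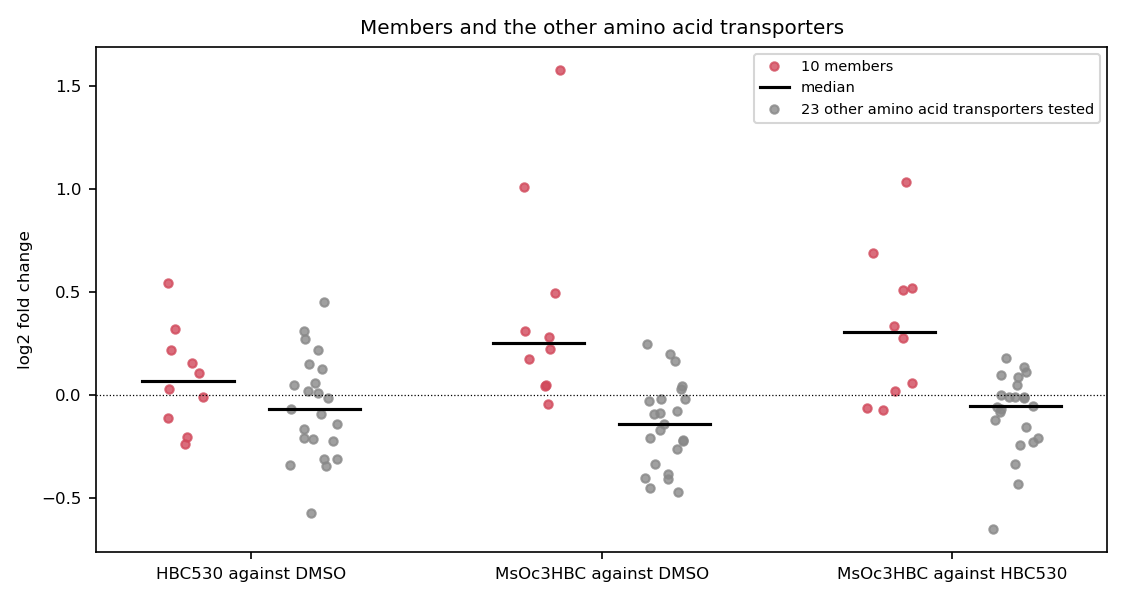
Log2 fold changes of the 10 transporter transcripts (red) and of the 23 other amino acid transporters that passed the filter (grey) in the 3 comparisons, with the median of each group as a line. The medians of the 10 are 0.07, 0.25 and 0.31 and those of the 23 are -0.07, -0.14 and -0.05.

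Genes that regulate or use these transporters are given for orientation. Their lists, like the others used here, were chosen with earlier results of these data known, so nothing is read from the counts. Of 14 regulators of the integrated stress response, edgeR called ATF3 with HBC530 and SESN2, ATF3 and DDIT3 with MsOc3HBC against DMSO, all higher, where 0.017% and 0.154% of all genes were called. Between the ligands it called 0 of the 14 without the block and 6 with it (SESN2, DDIT4, DDIT3, NUPR1, CEBPG and ATF4), all higher with MsOc3HBC, where 11.4% of all genes were called. With each of 6 libraries left out in turn, the MsOc3HBC calls held in 6 fits for ATF3, in 5 for SESN2 (not without DMSO replicate 1, adjusted p = 0.0526 by edgeR) and in 2 for DDIT3 (without MsOc3HBC replicate 2 or 3). The HBC530 call of ATF3 held in 1 fit, without HBC530 replicate 3. DDIT3 overlaps MARS1, with which it may share reads. ATF4 itself, the transcription factor that drives several of the transporter genes, stood at 602, 662 and 685 CPM in DMSO, at 787, 763 and 964 CPM with HBC530 and at 947, 926 and 1139 CPM with MsOc3HBC. Its log2 fold changes were 0.37 (adjusted p = 0.751) and 0.63 (adjusted p = 0.0728) by edgeR, and neither ligand group overlapped DMSO. Between the ligands ATF4 was 0.26 higher with MsOc3HBC in the paired fit (adjusted p = 0.00365 by edgeR). Of 14 genes of the NRF2 pathway and glutathione synthesis, edgeR called 0 in each of the 3 comparisons without the block, with 1, 1 and 2 at an unadjusted p under 0.05. With the block, its calls between the ligands included NFE2L2 (0.24), higher with MsOc3HBC, and GPX4 (-0.21), lower, where 11.4% of all genes were called. Neither was called with the block and GC and length trends removed. The median log2 fold changes of the 14 NRF2 pathway and glutathione genes were 0.0020 with HBC530 and -0.05 with MsOc3HBC against DMSO.

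The genes whose levels ran most like those of SLC7A11 and SLC6A9 over the 9 libraries were looked up among 13613 genes with a mean of at least 1 CPM. For SLC7A11 they were ULBP1 (Pearson's r = 0.980), SESN2 (0.974), R3HDM2 (0.973), ZFP90 (0.962) and BCLAF3 (0.959). For SLC6A9 they were DHTKD1 (0.981), SESN2 (0.981), ZNF333 (0.966), TK2 (0.958) and R3HDM2 (0.955). SESN2 and R3HDM2 were on both lists. Mean levels in DMSO, HBC530 and MsOc3HBC were 63.1, 77.4 and 122 CPM for SESN2, and 21.0, 23.7 and 32.5 CPM for R3HDM2. The 9 points share their treatment groups and the depth of their libraries, so these values describe likeness only.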

How the data were processed

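According to the methods and the submitters' processing notes, the authors used Trimmomatic 0.36 for trimming, STAR 2.5.2b for alignment to GRCh38 and featureCounts (Subread 1.5.2) for counts of unique hits per gene. The deposited count files hold raw counts of 57500 genes per library. The annotation release, the strand setting and the counting of read pairs are not given in the sources used here. In 2 further deposited tables, the authors give a normalized signal (counts divided by DESeq2 size factors), log2 fold changes and p-values of each ligand against DMSO. Only their gene names and IDs were used.

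Genes were kept with filterByExpr (edgeR 4.0.16, R 4.3.3), libraries were scaled by TMM, and 3 libraries were compared with 3 by the quasi-likelihood F test with Benjamini-Hochberg adjustment over all genes kept. A gene was called at an adjusted p under 0.05. Intervals are 95% confidence intervals of the same fit. CPM values share 1 TMM scale over the 9 libraries, and RPKM divides them by the merged exon length. The p-values measure the spread between 3 biological replicates as the methods name them. The edgeR and DESeq2 fits without a block, with every library of a comparison, were checked on simulated data. The fits with a block, with trends removed or with libraries left out were not.

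The 10 genes and all gene lists were chosen with earlier results of these data known. By rule, all 10 genes are named, and of each list the genes called without a block by edgeR and the 2 with the highest RPKM in DMSO. For SLC7A11 and SLC6A9, the 5 genes with the highest correlation of log2 CPM (prior count 1) are named as well. Outside this rule, SLC43A2, MTHFD1L, SLC25A22, RPTOR, LAMTOR1, NFE2L2, NUPR1, CEBPG and SLC6A6 were named because an alternative fit called them. AMT was named for its value. Of 12 genes of the sensing list, 11 were found in the files.

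Replicate numbers come from the sample labels, which do not say whether same-numbered libraries were made together. Across genes, the deviations of same-numbered libraries from their group means correlated at 0.167, 0.368 and 0.433 between MsOc3HBC and HBC530, all over 0.1, so the paired fit is given for that comparison. The main comparisons were planned without a block. Alternatives were DESeq2 1.42.0, limma-voom (limma 3.58.1), RLE and upper-quartile scaling, other filters on low counts, all 9 libraries in 1 fit, a replicate block, removal of GC and length trends (splines with 5 degrees of freedom), each library left out, and the ligands without their replicate 3. The planned comparison of protein sequences was not made.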

Additional observations from a re-analysis of the deposited data

How the results depend on the processing

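Of 490 alternative values of single transporters, 22 turned direction, in 5 genes and with a size of at most 0.12 on the log2 scale. With MsOc3HBC against DMSO 4 did, with a library left out, for SLC1A5 (to -0.045), SLC7A5 (to -0.028) and SLC43A1 (to 0.040). For HBC530 against DMSO, SLC7A5 was 0.00052 with upper-quartile scaling, and with a library left out it ranged from -0.11 to 0.12 (above 0 without DMSO replicate 3 and without HBC530 replicate 3). With a library left out, SLC7A1 ranged from -0.26 to 0.090 (above 0 without HBC530 replicate 3) and SLC43A1 from -0.061 to 0.11 (below 0 without replicate 1 of DMSO or of HBC530). SLC43A1 was -0.039 with GC and length trends removed and -0.042 with a replicate block as well. Between the ligands, SLC7A5 ranged from -0.063 to 0.15 (below 0 without HBC530 replicate 3 and without MsOc3HBC replicate 2) and SLC3A2 from -0.028 to 0.062 (below 0 without HBC530 replicates 1 or 2 and without MsOc3HBC replicate 3). SLC7A5 was -0.0044 without replicate 3 of both ligands. With the trends removed, SLC1A5 was 0.070 (0.062 with the block) and SLC43A1 0.032 (0.028 with the block). The cause was not tested.

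The number of the 10 transporters called against DMSO with HBC530 was 0, and 1 (SLC7A11) with no filter and with GC and length trends removed, with or without the block. With MsOc3HBC it was 2, and from 1 to 2 when a library was left out. It was 3, with SLC1A4, by DESeq2, with no filter and with the block, with or without the trends. Between the ligands, counting SLC7A11 and SLC6A9, whose calls there are not read, it was 0, but 3 by DESeq2, 2 with no filter, and 5 with the replicate block, with the block and the trends removed, and without replicate 3 of both ligands. Of the other transporters, SLC6A6 was the 1 called with no filter against DMSO, lower with HBC530 (log2 fold change -0.58) and with MsOc3HBC (-0.48). It was also the 1 called with the block for MsOc3HBC, again lower (-0.52). Between the ligands 2 of the other transporters were called with the block, 1 with the trends removed as well and 2 without replicate 3 of both. Over all genes, the 3 calls of HBC530 became 22 by DESeq2, 52 with no filter, 16 with the block and 10 with the trends removed, 5 by limma-voom or in 1 fit of all 9 libraries, and from 2 to 6 with a library left out. The 27 of MsOc3HBC became 129, 250, 149 and 62 under the first 4 of these, 80 with block and trends and from 6 to 76 with a library left out. The 0 between the ligands became 28, 12, 1990 and 1, 322 with block and trends, 4 in 1 fit and 1635 without replicate 3 of both. Against DMSO, the correlations of same-numbered libraries were 0.0871, 0.0127 and 0.172 for HBC530. For MsOc3HBC they were -0.111, 0.00973 and 0.0410. They were thus not all over 0.1 for either ligand, though 0.172 was. The block changed only the call of SLC1A4 against DMSO among the 10 genes.

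With 3 libraries per group the intervals of the 10 genes are wide, and the scarce SLC7A11, SLC1A4, SLC6A9 and SLC43A1 rest on 366 to 1801 counts per library.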

Other observations

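Enzymes that use glycine and serine for one-carbon units were also read out, since SLC6A9 and SLC1A4 carry these amino acids. Of 9 such genes, edgeR called 0 in each comparison without the replicate block, with 0, 3 and 1 at an unadjusted p under 0.05 (5.07%, 10.9% and 7.32% of all genes). Between the ligands, with the block, it called MTHFD2 (log2 fold change 0.42, adjusted p = 0.00168) and MTHFD1L (0.19, adjusted p = 0.0382), where 11.4% of all genes were called. With GC and length trends removed as well, MTHFD2 stayed called (0.34) and MTHFD1L did not. Without replicate 3 of both ligands it called MTHFD2 (0.33, adjusted p = 0.00134), where 9.16% of all genes were called. MTHFD2, the mitochondrial folate dehydrogenase, held 224, 211 and 206 CPM in DMSO, 226, 222 and 225 CPM with HBC530 and 276, 291 and 339 CPM with MsOc3HBC. All MsOc3HBC libraries lay above the rest, and the log2 fold change against DMSO was 0.50 (SE 0.10, adjusted p = 0.118 by edgeR). SHMT2, the mitochondrial serine hydroxymethyltransferase, was the most abundant of the list per length and gave 0.15 and 0.14 for HBC530 and MsOc3HBC against DMSO (adjusted p = 0.751 and 0.599 by edgeR). AMT of the glycine cleavage system had the largest value of the list, 0.67 with MsOc3HBC against DMSO, at an unadjusted p above 0.05.

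Of 11 mitochondrial amino acid carriers tested, edgeR called 0 in each comparison without the block, with 0, 0 and 1 at an unadjusted p under 0.05, and the median log2 fold changes were -0.07, -0.15 and -0.11. With the block it called SLC25A22 between the ligands, at -0.25 (adjusted p = 0.00850), and at -0.27 without replicate 3 of both (adjusted p = 0.0102). In these fits 11.4% and 9.16% of all genes were called. SLC25A22 was not called with the block and GC and length trends removed. The best expressed per length were SLC25A38, a glycine carrier, at -0.11 with MsOc3HBC against DMSO, and SFXN1, a serine carrier, at -0.17. Of 11 genes of amino acid sensing and transporter regulation, edgeR called 1 without the block, TXNIP, an arrestin that restrains glucose uptake. With the block it called MYC (-0.23, adjusted p = 0.0184) and RPTOR (-0.26, adjusted p = 0.00595) between the ligands, where 11.4% of all genes were called. Without replicate 3 of both ligands it called MYC, RPTOR, RRAGA and LAMTOR1, where 9.16% of all genes were called. All were lower with MsOc3HBC, and none was called with the block and GC and length trends removed. TXNIP stood at 11.5, 11.9 and 11.7 CPM in DMSO, at 8.06, 8.13 and 6.76 CPM with HBC530 and at 7.72, 7.56 and 7.54 CPM with MsOc3HBC, so both ligands lay below DMSO. Its log2 fold changes were -0.61 (adjusted p = 0.213) and -0.62 (adjusted p = 0.0471) by edgeR. With 1 of the 6 libraries left out, the MsOc3HBC call held only without MsOc3HBC replicate 3, and the adjusted p by edgeR ranged from 0.0196 to 0.398 at log2 fold changes from -0.64 to -0.61. MYC and RRAGA, the best expressed of that list per length, were at -0.25 and -0.09 with MsOc3HBC against DMSO (adjusted p = 0.384 and 0.770 by edgeR).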
